A study of Mus musculus with 15 samples.

Results

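The variable segments of the mouse immunoglobulin kappa light chain (Igkv) were taken as all rows of the 9 RNA count tables whose Ensembl identifier maps to a symbol that starts with Igkv. This gave 59 of 37583 gene rows, of which RefSeq lists 53 as V segments and 6 as V segment pseudogenes. The name table holds 160 Igkv symbols, and the other 101 matched no row and were not analysed here. Of the 59 rows, 57 had a count in at least 1 library, Igkv13-87 and Igkv2-95-2 were at 0 in all 9, and 51 passed the filter on low counts used for the tests.

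The libraries came from B220+ cells, the B lineage cells caught by beads against CD45R, that were isolated from mouse lymphomas without culture. In 4 libraries the tumours carried an empty vector (EV), and in the other 5 a hairpin directed at Kmt2d (sh-Kmt2d), a gene that encodes a histone H3 lysine methyltransferase. The sources used here give no strain, age or further alleles of the mice and do not state that each library is a separate animal, so p-values measure the spread between these libraries only. Sample titles carry a number that is 78 for EV library 1, 87 for EV libraries 2 to 4, 103 for sh-Kmt2d libraries 1 to 3 and 110 for sh-Kmt2d libraries 4 and 5, so what that number marks cannot be told apart from the transduction.

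A kappa chain is encoded by a V segment that recombination joins to a J segment (Igkj), followed by the constant exon Igkc. A mature B cell usually keeps a single productive light chain, kappa or lambda, and its descendants inherit the same join, so an expanded clone fills its sample with transcripts of its own V segment. A varied population instead spreads its transcripts over many segments, as in normal spleen, where a share of the cells uses lambda chains.

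Kmt2d, the targeted gene, stood at 498, 252, 492 and 94.4 CPM, counts relative to the library's total after edgeR's TMM correction, in EV libraries 1 to 4 and at 57.4, 46.8, 204, 18.8 and 9.77 CPM in sh-Kmt2d libraries 1 to 5. The groups overlapped, with sh-Kmt2d library 3 above EV library 4, and its log2 fold change was -2.31 ± 0.84 (SE; edgeR quasi-likelihood test, Benjamini-Hochberg adjusted p = 0.167). Counts assigned to genes ranged from 5925745 in sh-Kmt2d library 5 to 29284830 in sh-Kmt2d library 1, and 36.5 to 73.7% of alignments, most in sh-Kmt2d library 5, were set aside by the authors' counting because they were not unique. Of the B cell markers, Ms4a1 stood at 1348 to 3134 CPM across the 9 libraries. No pair among the 36 pairs of libraries agreed within sampling noise.

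Igkv rows held 31863 to 153026 counts per library, which was 0.231 to 1.13% of the counts on genes. Shares below are percentages of these Igkv counts, uncorrected for segment length, and counts of reads that matched several segments equally are not in them. The 95% Wilson intervals cover counting error only. Between the identifiers of Igkv2-137 and Igkv3-7 lay 38 further rows without a symbol, which held 36.9 to 51.7% of the counts of both sets together; what they are was not settled here, and shares with them in the denominator are given as well.

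Most libraries were led by a segment of their own. EV library 1 had 31.6% of its Igkv counts (interval 31.2 to 31.9) on Igkv2-137. EV library 2 had 14.1% (13.7 to 14.5) on Igkv5-39. EV library 3 had 20.3% (19.99 to 20.6) on Igkv8-30, and EV library 4 had 14.0% (13.8 to 14.2) on Igkv4-74. The 4 EV libraries thus had 4 different leading segments, and library 1 had the highest leading share among them.

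Among the sh-Kmt2d libraries, library 3 had 48.8% (48.4 to 49.1) on Igkv5-48, the highest share of any segment in any library. Library 5 had 32.9% (32.6 to 33.3) on Igkv1-99, and library 1 had 29.7% (29.5 to 29.9) on the row named Igkv11-106. Libraries 2 and 4 were led by Igkv5-39, with 23.0% (22.7 to 23.2) and 11.9% (11.7 to 12.1). The 9 libraries thus had 7 different leading segments, and only Igkv5-39 led more than a single library, namely 3 of them. The Igkv11-106 row is listed by RefSeq as a pseudogene, and its Ensembl number, ENSMUSG00000076530, falls between those of Igkv12-98 and Igkv4-92, unlike its symbol, so its symbol is uncertain; the same holds for Igkv4-83.

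**Figure D1:**
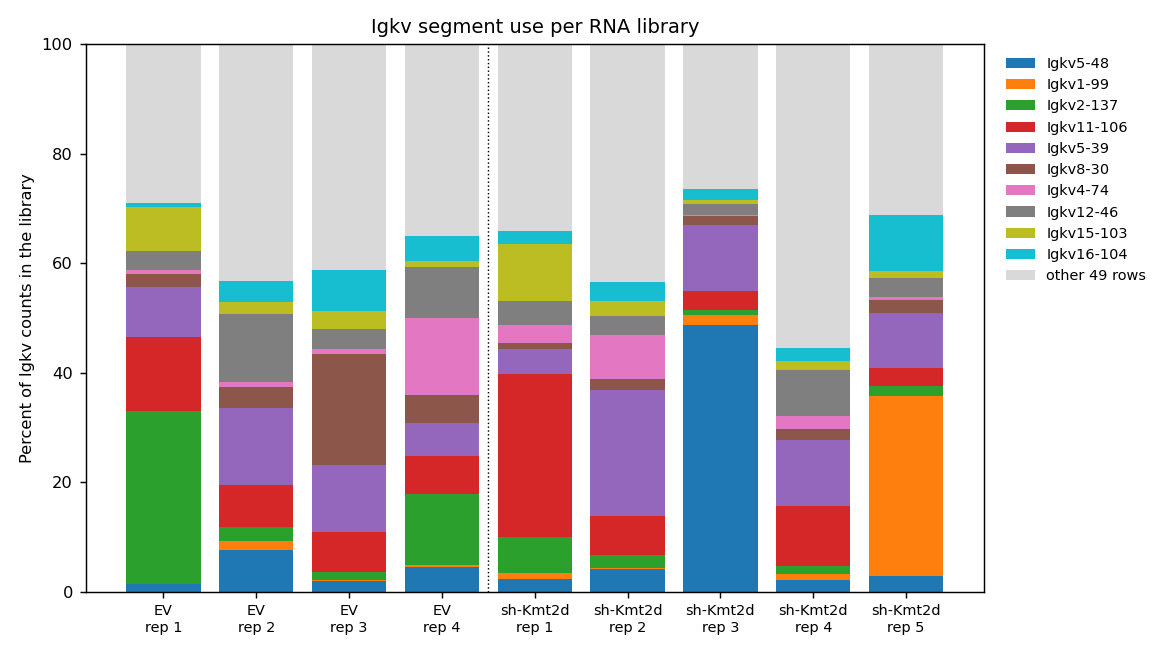
Share of Igkv counts (percent, vertical axis) on the segments that reach 10% in any library, stacked for each of the 4 EV and 5 sh-Kmt2d libraries, with all other segments in grey. The tallest single block is Igkv5-48 in sh-Kmt2d library 3, at 48.8%.

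The lead over the second segment separated the libraries further. It was 2.35-fold in EV library 1 (Igkv11-106 second, 13.4%), 1.14-fold in EV library 2 (Igkv12-46, 12.4%), 1.66-fold in EV library 3 (Igkv5-39, 12.2%) and 1.07-fold in EV library 4 (Igkv2-137, 13.0%). In sh-Kmt2d libraries 1 to 5 it was 2.87-fold (Igkv15-103, 10.3%), 2.82-fold (Igkv4-74, 8.13%), 4.02-fold (Igkv5-39, 12.1%), 1.08-fold (Igkv11-106, 11.05%) and 3.26-fold (Igkv16-104, 10.1%). Among the named rows, the leader was at least 2-fold above the second in 5 of 9 libraries, 1 EV and 4 sh-Kmt2d. EV libraries 2, 3 and 4 and sh-Kmt2d library 4 had no such named segment.

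With the 38 unnamed rows counted in, the largest Igkv segment held 6.81 to 29.2% of the joint counts. In EV library 2 and sh-Kmt2d libraries 2 and 4 an unnamed row then exceeded it. The shares were 16.8 against 6.81%, 12.5 against 11.4% and 7.16 against 6.98%, in that order. Those are the 3 libraries led by Igkv5-39, so the leading kappa segment of these libraries is not settled by the named rows. In sh-Kmt2d library 5 an unnamed row held 9.87% against 17.1% for Igkv1-99, which leaves less than a 2-fold lead. The count of 2-fold leads, and its split between the groups, therefore holds for named rows only. Per 100 Igkc counts, a denominator that needs no list of segments, the largest named segment had 10.3, 3.28, 6.98 and 3.89 counts in EV libraries 1 to 4. It had 8.88, 6.31, 15.9, 4.05 and 8.61 in sh-Kmt2d libraries 1 to 5, again highest for Igkv5-48 in sh-Kmt2d library 3. The choice of the largest segment still rests on the named rows, and the unnamed rows that exceeded it do so on this scale as well.

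Igkv5-48, the leader of sh-Kmt2d library 3, held 1.38, 7.66, 1.88 and 4.49% of Igkv counts in EV libraries 1 to 4. In sh-Kmt2d libraries 1 to 5 it held 2.41, 4.15, 48.8, 2.15 and 2.80%. Its share in library 3 was 18.7 times the median of the other 8 libraries, which themselves overlapped between the groups.

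Igkv1-99 showed the widest contrast. It held 0.115, 1.597, 0.237 and 0.425% in EV libraries 1 to 4, and 1.10, 0.181, 1.67, 1.07 and 32.9% in sh-Kmt2d libraries 1 to 5. The share in sh-Kmt2d library 5 was 44.0 times the median of the others. Igkv12-98, its immediate neighbour on one side in RefSeq order, held 0.677% in that library against a median of 0.652% in the others. The high share did not extend to that neighbour, and the segment on the other side was not among the rows. Igkv12-38, next to Igkv5-39, held 0.822, 0.210 and 5.56% in EV library 2 and sh-Kmt2d libraries 2 and 4, which Igkv5-39 led. The medians of the other libraries were 0.241, 0.289 and 0.241%.

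Igkv2-137, the most distal of the leading segments by its number, held 31.6, 2.52, 1.49 and 13.0% across EV libraries 1 to 4 and 6.52, 2.39, 0.905, 1.46 and 1.76% in sh-Kmt2d libraries 1 to 5. It was high in EV libraries 1 and 4, which have different title numbers. Igkv4-74 held 0.720, 0.957, 0.835 and 14.0% in the 4 EV libraries, against 3.33, 8.13, 0.271, 2.32 and 0.565% in the 5 sh-Kmt2d libraries. It was thus prominent in a library of each group. Igkv8-30 held 2.38, 3.80, 20.3 and 5.24% in the 4 EV libraries, against 1.08, 1.98, 1.56, 2.06 and 2.41% in the 5 sh-Kmt2d libraries, high in EV library 3 alone.

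Igkv5-39 and Igkv12-46 behaved differently from these, being used widely. Igkv5-39 held 9.15, 14.1, 12.2 and 6.07% in EV libraries 1 to 4 and 4.55, 23.0, 12.1, 11.9 and 10.1% in sh-Kmt2d libraries 1 to 5. It was the only segment among the top 5 of all 9 libraries. Igkv12-46 held 3.44, 12.4, 3.65 and 9.26% in the 4 EV libraries, against 4.38, 3.49, 1.89, 8.48 and 3.43% in the 5 sh-Kmt2d libraries, and ranked no lower than 7 in any.

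The Igkv11-106 row held 13.4, 7.70, 7.31 and 6.76% in EV libraries 1 to 4 and 29.7, 7.16, 3.56, 11.05 and 3.34% in sh-Kmt2d libraries 1 to 5, and it too ranked no lower than 7. Without it, sh-Kmt2d library 1 was led by Igkv15-103 with 14.7%. Igkv15-103 had 10.3% there and 8.07% in EV library 1, the same 2 libraries in which Igkv11-106 was highest, and at most 3.25% elsewhere. Igkv16-104 had 10.1% in sh-Kmt2d library 5, 7.66% in EV library 3 and 0.792 to 4.55% in the other 7.

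**Figure D2:**
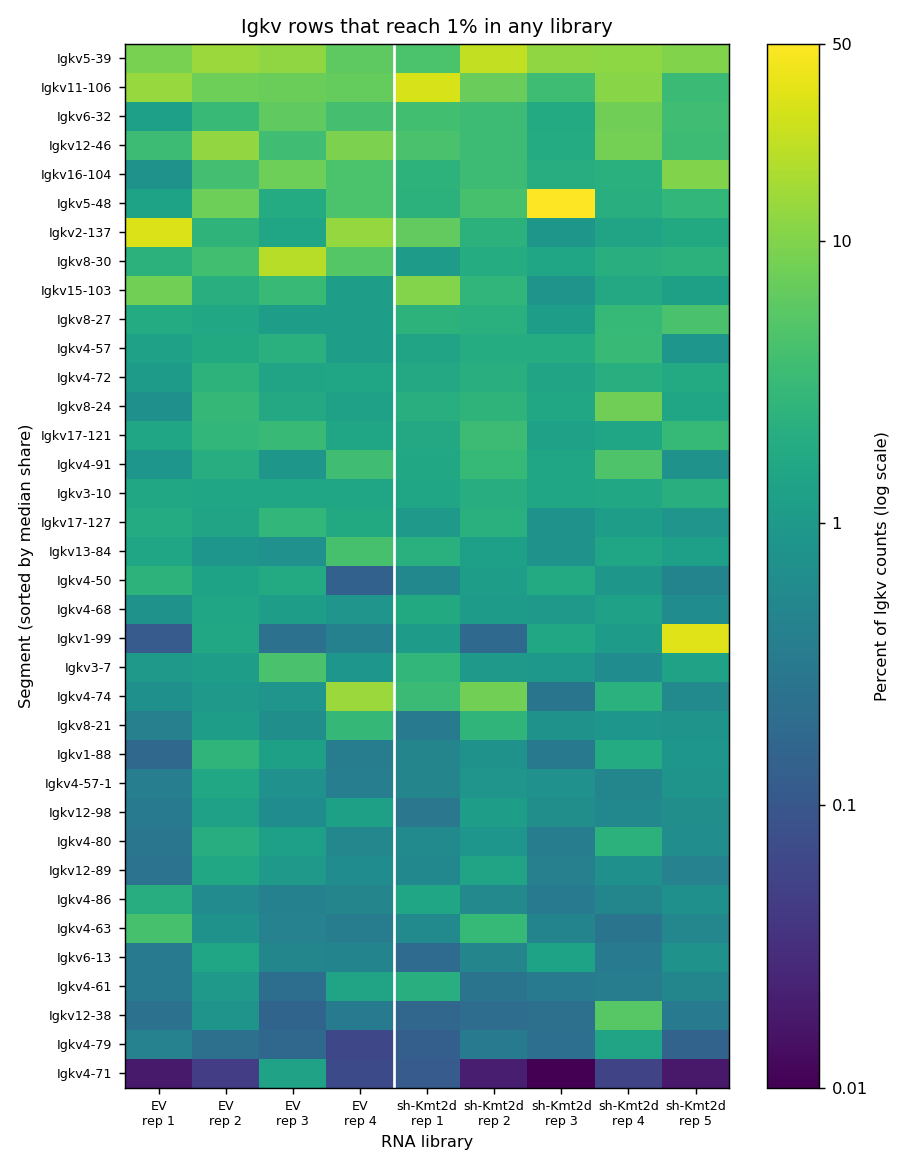
Share of Igkv counts (percent, colour on a log scale) for the 36 segments that reach 1% in any library, in rows, and the 9 libraries in columns. Single bright cells, such as Igkv1-99 in sh-Kmt2d library 5, stand beside rows that are bright in every library, such as Igkv5-39.

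Below these leaders, 36 rows reached 1% in at least 1 library and 10 reached 10%. Each in its highest library, 31 rows stood at least 2-fold above the median of the other 8 libraries, 11 at least 5-fold, 6 at least 10-fold and 3 at least 20-fold. Besides Igkv5-48, Igkv1-99, Igkv2-137 and Igkv4-74, the 6 included Igkv12-38 with 5.56% in sh-Kmt2d library 4 against a median of 0.241%, and Igkv4-71 with 1.37% in EV library 3 against a median of 0.0338%. Single-library peaks therefore also occurred far below the leading position.

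The opposite pattern was a steady level. There were 10 rows at 1% or more in all 9 libraries, and the narrowest range among them was that of Igkv3-10, from 1.47 to 2.05%. It was singled out after its values were seen. By family, the 19 Igkv4 rows held 8.89 to 25.4% of the counts, the 7 Igkv8 rows 5.43 to 24.2%, the 5 Igkv1 rows 0.316 to 33.9%, the 3 Igkv5 rows 6.99 to 60.9% and the 3 Igkv2 rows 1.598 to 31.8%. The widest of these ranges were in families of 3 or 5 rows. Other small families had narrow ranges, such as the 3 Igkv17 rows at 2.13 to 6.09% and the 2 Igkv3 rows at 2.26 to 5.91%.

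The spread over segments was summarised by the inverse Simpson index, the number of equally used segments that would give the same chance of drawing the same segment at 2 draws. It was 7.15, 16.9, 12.4 and 14.7 in EV libraries 1 to 4. In sh-Kmt2d libraries 1 to 5 it was 8.61, 12.6, 3.87, 16.9 and 7.18. The lowest value was in the library led by Igkv5-48, and EV library 2 and sh-Kmt2d library 4 shared the highest, so the groups overlapped. With the 38 unnamed rows counted in, it was 16.1, 20.5, 24.9 and 29.8 in EV libraries 1 to 4. In sh-Kmt2d libraries 1 to 5 it was then 20.5, 22.4, 9.54, 30.2 and 15.7. The lowest library stayed the same, but EV library 2 was no longer among the highest. Without the leading segment of each library the index was 11.7 to 22.3, so the segments behind the leader remained varied in every library.

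The number of segments that together made 50% of the Igkv counts was 3, 7, 5 and 6 in EV libraries 1 to 4 and 4, 7, 2, 6 and 3 in sh-Kmt2d libraries 1 to 5. Reaching 90% took 18 to 27 segments. Shannon entropy was 3.83, 4.72, 4.39 and 4.42 bits in the 4 EV libraries, against 4.16, 4.53, 3.36, 4.61 and 3.95 bits in the 5 sh-Kmt2d libraries. By the number for 50% and by entropy sh-Kmt2d library 3 was the most concentrated, while the fewest segments for 90% were in EV library 1, with 18 against 20 in sh-Kmt2d library 3.

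None of these measures passed as different between the groups in exact two-sided permutation tests that exchanged libraries between the groups, adjusted over 6 measures by the Benjamini-Hochberg method. The leading share of the 4 EV libraries averaged 19.98% ± 8.27 (SD) and that of the 5 sh-Kmt2d libraries 29.3% ± 13.6 (SD), a difference of 9.28 points (permutation p = 0.294, adjusted 0.583). The inverse Simpson index was 12.8 ± 4.17 and 9.83 ± 5.04, a difference of -2.94 (exact permutation p = 0.389, adjusted 0.583), and the entropy differed by -0.22 bits (exact permutation p = 0.508, adjusted 0.610). The smallest p that this design allows is 0.00794. Without sh-Kmt2d library 3 these differences were 4.40 points, -1.45 and -0.03 bits. The index difference was also -1.57 without EV library 2, -4.81 without EV library 1 and -4.70 without sh-Kmt2d library 4, and the entropy difference -0.10, -0.39 and -0.34 bits. Without Igkv11-106 the differences were 5.35 points, -0.48 and -0.11 bits. By title number, the mean leading share was 31.6% for 78 (a single library), 16.1% for 87, 33.8% for 103 and 22.4% for 110, so the title numbers differed within each group as well.

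**Figure D3:**
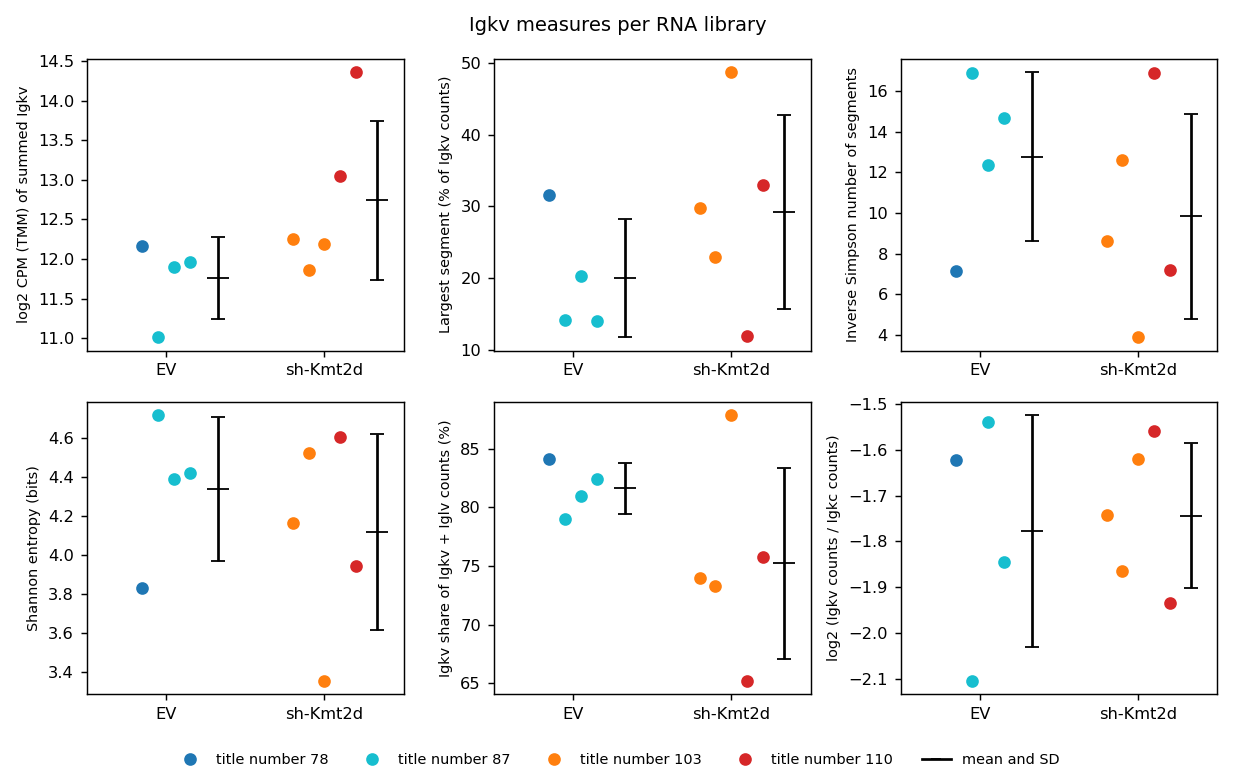
The 6 measures of Igkv use tested, 1 point per library for EV (n = 4) and sh-Kmt2d (n = 5), coloured by title number, with bars for the group mean and SD. The points of the groups overlap in each panel.

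Libraries of a group were not found to be more alike in their segments than libraries of different groups. Morisita-Horn overlap, which is 0 when no segment is shared and 1 when the shares are the same, had a median of 0.497 over the 7 pairs with the same title number (0.186 to 0.687). It had a median of 0.366 over the 9 pairs of the same group with other title numbers, and of 0.451 over the 20 pairs across groups (0.152 to 0.861). The mean within groups was below that across groups by 0.0264 (difference -0.0264, exact permutation p = 0.508). The most alike pair was EV library 2 with sh-Kmt2d library 4, both led by Igkv5-39, and the least alike was EV library 1, led by Igkv2-137, with sh-Kmt2d library 3, led by Igkv5-48.

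**Figure D4:**
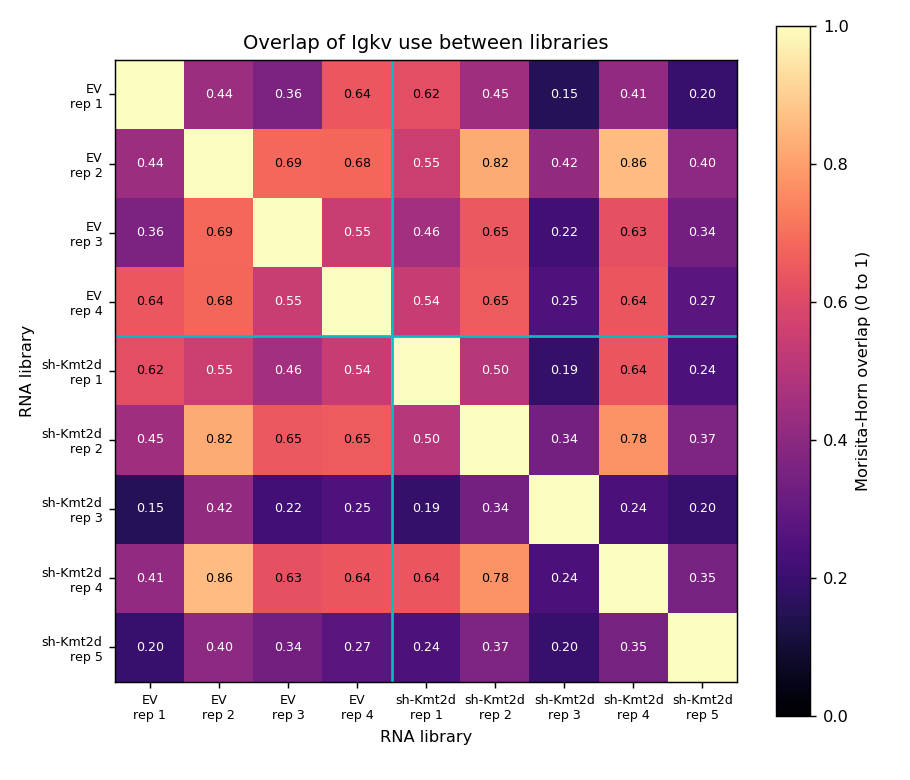
Morisita-Horn overlap of Igkv shares (colour and number, 0 to 1) for each pair of the 9 libraries, with lines between EV and sh-Kmt2d. The pairs across groups span 0.152 to 0.861, and the row of sh-Kmt2d library 3 is dark throughout, at 0.152 to 0.416.

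The joining segments, which are rows outside the set, also differed between the libraries. EV library 1, led by Igkv2-137, had 39.8% of its Igkj counts on Igkj5, against 21.9 to 32.9% in the other libraries. In sh-Kmt2d library 3, led by Igkv5-48, Igkj4 held 34.1%, against 12.6 to 25.3% elsewhere. In sh-Kmt2d library 5, led by Igkv1-99, Igkj2 held 47.0%, against 21.2 to 34.2% elsewhere. The 3 libraries with the highest leading Igkv shares were therefore each the highest for a different J segment.

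The match was not general, since sh-Kmt2d library 1, with 29.7% on Igkv11-106, was highest for no J segment, and EV library 2, with a leading share of 14.1%, was highest for both Igkj1 and Igkj3. Igkj1 ranged from 11.4 to 24.1% and Igkj3 from 0.139 to 3.31% of Igkj counts. Igkj counts were 4.19 to 5.07 per 100 Igkc counts. Short reads that span the join were not available as pairs of V and J here, so which V was joined to which J was not measured.

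**Figure D5:**
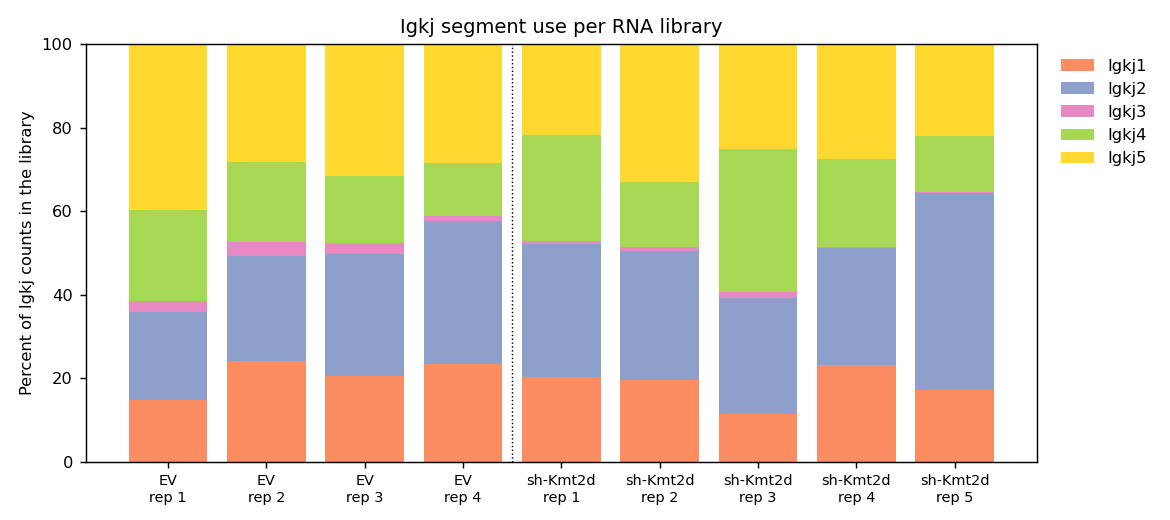
Share of Igkj counts (percent) on Igkj1 to Igkj5, stacked for each library. Igkj5 in EV library 1, Igkj4 in sh-Kmt2d library 3 and Igkj2 in sh-Kmt2d library 5 exceed the same segment in all other libraries.

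Total Igkv RNA was 4576, 2061, 3835 and 4002 CPM in EV libraries 1 to 4 and 4880, 3733, 4691, 8447 and 21106 CPM in sh-Kmt2d libraries 1 to 5. Of the sh-Kmt2d libraries, 4 lay above the highest EV library, and sh-Kmt2d library 2 lay within the EV range. As a single feature in edgeR's quasi-likelihood test, summed Igkv had a log2 fold change of 1.25 ± 0.57 (SE; Benjamini-Hochberg adjusted p = 0.178 over all features tested). Without sh-Kmt2d library 5 the value was 0.59, and without both libraries of title number 110 it was 0.31. Scaled by total counts, library 5 had 11296 CPM in place of 21106, and the log2 fold change was 0.79. The mean log2 CPM was 11.76 ± 0.51 in EV and 12.74 ± 1.004 in sh-Kmt2d (SD; exact permutation p = 0.151, adjusted 0.548). In bulk samples, more cells of a type and more RNA per cell cannot be told apart.

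Of the 51 tested rows, none passed adjusted p under 0.05 in edgeR in either direction, against 0% of all 13349 genes tested. At unadjusted p under 0.05, 17 of 51 were higher in sh-Kmt2d, where 17.3% of all tested genes were, and 0 of 51 were lower, where 11.1% of all genes were. The log2 fold change was positive for 43 of 51, with a median of 1.27 against -0.04 for all tested genes. Scaling by total counts moved the median of all genes to -0.20 and that of the Igkv rows to 0.88. Without title number 110 the Igkv median was 0.30. DESeq2 called 3 of the 48 rows it gave an adjusted p higher, against 1.83% of all genes, and 0 lower, against 3.22%.

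The 3 rows were Igkv8-24, Igkv8-27 and Igkv12-38, of which the last 2 are named because of this call. Igkv8-24 stood at 33.4, 59.4, 65.5 and 52.4 CPM in EV libraries 1 to 4 and at 100, 95.0, 77.0, 677 and 312 CPM in sh-Kmt2d libraries 1 to 5. All sh-Kmt2d libraries were above all EV libraries in CPM, and the 2 of title number 110 were highest. Per 100 Igkc counts, Igkv8-24 had 0.237, 0.671, 0.588 and 0.364 in EV libraries 1 to 4. It had 0.615, 0.699, 0.534, 2.72 and 0.387 in sh-Kmt2d libraries 1 to 5, so the groups overlapped and only library 4 stood apart. Its log2 fold change was 2.26 ± 0.70 (SE), with an adjusted p of 0.167 in edgeR and 0.0230 in DESeq2. The fold change was 1.47 without sh-Kmt2d library 4 and 0.80 without title number 110.

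Igkv8-27 had 86.4, 32.4, 44.5 and 46.9 CPM in EV and 121, 83.6, 56.4, 255 and 911 CPM in sh-Kmt2d, and the groups overlapped. Igkv12-38 had 11.4, 16.9, 5.90 and 13.8 CPM in EV and 8.10, 7.82, 10.9, 469 and 69.7 CPM in sh-Kmt2d. Only the 2 libraries of title number 110 were above EV for Igkv12-38. Igkv4-72 was the other row whose groups did not overlap in CPM, which makes 2 of 51 against 10.8% of all tested genes. As a share of Igkv counts its groups did overlap, at 1.09 to 2.43% in EV and 1.47 to 2.09% in sh-Kmt2d.

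Igkv4-68, with 36.3 ± 5.83 CPM in EV and 83.0 ± 39.8 CPM in sh-Kmt2d (SD), differed by 1.19 ± 0.38 log2 (SE; edgeR adjusted p = 0.167), and by 0.67 without title number 110. Igkv1-99 had 6.48 ± 2.17, the most positive log2 fold change of all tested genes, but 1.83 without sh-Kmt2d library 5, and its edgeR adjusted p was 0.167. Igkv5-48 had 2.50 ± 0.95 and Igkv5-39 had 1.43 ± 0.58, both with an edgeR adjusted p of 0.167. Igkv5-48 was at 1.13 without sh-Kmt2d library 3, and Igkv5-39 at 0.90 without sh-Kmt2d library 5 and at 0.64 without title number 110.

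The most negative were Igkv4-71 at -2.21 ± 1.27, Igkv2-137 at -1.46 ± 0.9997 and Igkv8-30 at -0.74 ± 0.85 (edgeR adjusted p 0.242, 0.309 and 0.530). These are the segments that were high in EV library 3 or in EV library 1. Without EV library 3, Igkv4-71 and Igkv8-30 turned positive, at 1.001 and 0.39, and without EV library 1 Igkv2-137 was at -0.18.

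The other light chain genes had values close to those of the segments. Of 20 such genes listed, 14 were in the table and 11 were tested, of which 10 had positive values, with a median log2 fold change of 1.31. In edgeR none was called, and DESeq2 called 1 higher (Iglv1), against 1.83% of all genes. At unadjusted edgeR p under 0.05, 5 were higher and 1 lower, where 17.3 and 11.1% of all tested genes were. Igkc, the constant exon, had 14080, 8864, 11135 and 14386 CPM in EV libraries 1 to 4 and 16319, 13588, 14410, 24894 and 80730 CPM in sh-Kmt2d libraries 1 to 5. Its log2 fold change was 1.31 ± 0.60 (edgeR adjusted p = 0.179). Igkj4 had 1.32 ± 0.46 (edgeR adjusted p = 0.167).

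Igkv counts per 100 Igkc counts lay between 23.3 and 34.4 in all 9 libraries. The log2 ratio of Igkv to Igkc differed by 0.03 between the groups (exact permutation p = 0.833, adjusted 0.833); sh-Kmt2d library 5, with the most of both, was within the range of the others.

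The lambda chain was measured by 3 variable rows. Iglv1, the main lambda segment, had 574, 271, 447 and 490 CPM in EV libraries 1 to 4 and 1226, 895, 418, 3794 and 5218 CPM in sh-Kmt2d libraries 1 to 5. Its groups overlapped through sh-Kmt2d library 3, and its log2 fold change was 2.37 ± 0.73 (edgeR adjusted p = 0.167, DESeq2 0.0210). The named Igkv rows made 84.1, 79.0, 81.0 and 82.4% of the counts on named Igkv and Iglv rows in EV and 73.9, 73.3, 87.8, 65.2 and 75.8% in sh-Kmt2d, lower than every EV library in 4 of 5. The 38 unnamed rows and the 101 unmatched Igkv symbols are not in these shares. Kappa may therefore be undercounted, and any unnamed row that is kappa would raise them. The difference of -6.42 points had an exact permutation p of 0.183 (adjusted 0.548), and was -3.92 without sh-Kmt2d library 4, -3.28 without title number 110 and -9.58 without sh-Kmt2d library 3. In sh-Kmt2d libraries 2 and 4 Iglv1 exceeded the largest Igkv segment, in library 4 with 55761 against 14806 counts.

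With all 9 libraries in the fit, the lists of genes that make, read and mutate the kappa locus did not have the upward median of the Igkv rows. That Igkv median was 0.30 without title number 110, and no median of these lists was taken without those libraries. Of 15 V(D)J recombination genes, 14 were tested, edgeR called none and DESeq2 called 1 lower (Hmgb1, adjusted p = 0.0269), against 3.22% of all genes. At unadjusted edgeR p under 0.05, 1 was higher and 4 lower, where 17.3 and 11.1% of all tested genes were. The median log2 fold change of the list was -0.29. The pair of smallest p was Hmgb1, a DNA bending cofactor of the recombinase, at -1.06 ± 0.30, and Prkdc, the catalytic subunit of DNA-PK in end joining, at -1.49 ± 0.52 (edgeR adjusted p 0.167 for both). Rag1 and Rag2 encode the recombinase itself. Rag1 had 1.88 to 8.78 CPM in EV and 0 to 10.4 CPM in sh-Kmt2d, and Rag2 was at 0 in all EV libraries and at most 0.315 CPM in sh-Kmt2d.

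Of 18 transcription factors of kappa enhancers and promoters, edgeR called none and DESeq2 called 1 lower (Pou2f1, adjusted p = 0.0343), against 3.22% of all genes. At unadjusted edgeR p under 0.05, 1 was higher and 2 lower, where 17.3 and 11.1% of all tested genes were. The median of the list was -0.42. Pou2f1, an octamer factor of V promoters, had -1.82 ± 0.53, and Rel, an NF-kappaB subunit, had -1.39 ± 0.52 (edgeR adjusted p 0.167 for both). Of 11 somatic hypermutation genes, edgeR and DESeq2 called none, and the median was -0.09. Where 17.3 and 11.1% of all tested genes were higher and lower at unadjusted edgeR p under 0.05, 1 member was higher and 1 lower. These were Apex1, an abasic site endonuclease, at 0.95 ± 0.39, and Ptbp2, an RNA binding protein, at -0.80 ± 0.36 (edgeR adjusted p 0.167 and 0.174). Their median was thus close to that of all genes, while those of the other groups were lower.

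Plasma cells carry far more immunoglobulin RNA than other B cells, so their markers were set beside the level. Of 10 listed, 9 were in the table and tested, none was at 0, 6 had positive values and 3 had unadjusted edgeR p under 0.05 upward, where 17.3% of all tested genes did. Their sum was 6317, 2813, 4422 and 5838 CPM in EV and 6079, 4682, 5643, 9850 and 15118 CPM in sh-Kmt2d. It was lowest in EV library 2 and highest in sh-Kmt2d library 5, as for Igkv. Jchain, the member with the highest mean, had 5099 CPM in EV library 1 and 7263 CPM in sh-Kmt2d library 5, where Mzb1 had 6734 CPM. Xbp1, a secretory transcription factor, had 0.88 ± 0.32 and Mzb1, an endoplasmic reticulum chaperone partner, 2.06 ± 0.76 (edgeR adjusted p 0.167 for both). Sdc1, Prdm1 and Irf4 had -0.25 ± 0.39, -0.18 ± 0.55 and -0.90 ± 0.48.

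Summed B cell markers, 6 of 6 tested with 3 positive, were 8344 to 9664 CPM in EV and 9386 to 33555 CPM in sh-Kmt2d, again highest in library 5. That peak came mainly from Cd79b and Cd79a, at 19943 and 9771 CPM in library 5. Ms4a1 and Cd22 were there at their lowest of the 9 libraries, at 1348 and 853 CPM. Cd22 was lower in all sh-Kmt2d libraries than in any EV library, so the members of the list did not move together. Precursor B cell markers summed to 17.2 to 38.8 CPM in EV and 5.36 to 63.2 CPM in sh-Kmt2d, with Vpreb1 and Igll1 below 1 CPM in every library. The 63.2 CPM was in sh-Kmt2d library 3, the library with the highest leading Igkv share. Cd93, Il7r and Rag1 had 35.9, 14.2 and 10.4 CPM there, each the highest of the 9 libraries. Igll1 was also highest there, while all remaining members of the list were highest in other libraries. Markers of T cells summed to 30.6 to 46.2 and 46.5 to 130 CPM, of macrophages to 181 to 686 and 155 to 314, of erythroid cells to 8.80 to 237 and 17.7 to 69.1, of neutrophils to 6.73 to 212 and 2.40 to 50.1, and of platelets to 5.10 to 6.18 and 1.18 to 2.02. The T cell list was split, with 6 of 8 tested positive. Cd3g was higher in sh-Kmt2d without overlap (means 7.30 CPM in EV and 42.2 in sh-Kmt2d), and Cd4 was lower without overlap (13.2 and 4.97). The part of these cell types, and of the share of alignments that were not unique, in the Igkv values was not tested.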

How the data were processed

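RNA-seq libraries were prepared from total RNA with a TruSeq kit, per the labels' protocols. The deposited files hold whole-number read counts per Ensembl gene. The submitters' processing notes list HTSeq 0.6.0, CASAVA 1.8.2 and mm9. For aligner, annotation and strand setting: not given in the sources used here. The 5 summary rows of each table were left out of library sizes. H3K4me1/2 peak lists of 6 libraries were not used. Symbols were matched for 32860 of 37583 rows (87.4%); RefSeq supplied biotype and gene order only.

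Counts of all genes were filtered (filterByExpr), TMM-scaled and fitted with edgeR 4.0.16 (robust quasi-likelihood, two-sided) in R 4.3.3; p-values were Benjamini-Hochberg adjusted over 13349 genes. Library measures used exact permutation (scipy 1.17.1). The scripts were tested on simulated data. Alternatives were DESeq2 1.42.0, total counts, no filter, limma 3.58.1 with title number as a random effect, fits without each library or title number 110, and other denominators of Igkv use. Segments were named if they reached 10% of Igkv counts in any library, were among the 2 largest of a library, or were among the 3 of smallest p per direction; of the light chain, locus, B cell and plasma cell lists, up to 2 of smallest p were named, and Igkc by rule. Igkv8-27, Igkv12-38, Igkv4-72, Igkv3-10, Igkv12-98, the other Igkj genes, Rag1, Rag2, Sdc1, Prdm1, Irf4, Jchain, Tnfrsf17, Derl3, Fkbp11, Ms4a1, Cd22, Cd3g, Cd4, Cd93, Il7r, Vpreb1 and Igll1 were named outside this rule, with their values known. Members and lists were chosen with earlier results of these data known. Replicate numbers follow sample order.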

Additional observations from a re-analysis of the deposited data

Results flagged for a closer look

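Within groups of 4 or 5 libraries, 38 sets of values were checked for a library far from the others, and 10 held one. Chance gives about 5% of sets, but most segments checked were chosen because they reach 10% in a library, so the count cannot be read against it. All 10 were shares of a single segment. In EV these were Igkv11-106 in library 1 (13.4%, others 6.76 to 7.70), Igkv4-71 in library 3 (1.37%, others 0.0184 to 0.0674), Igkv8-30 in library 3 (20.3%, others 2.38 to 5.24) and Igkv4-74 in library 4 (14.0%, others 0.720 to 0.957).

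In sh-Kmt2d these were Igkv2-137 in library 1 (6.52%, others 0.905 to 2.39), Igkv15-103 in library 1 (10.3%, others 0.831 to 2.72) and Igkv5-48 in library 3 (48.8%, others 2.15 to 4.15). Igkv8-24 stood apart in library 4 (8.02%, others 1.48 to 2.54). Igkv1-99 (32.9%, others 0.181 to 1.67) and Igkv16-104 (10.1%, others 1.99 to 3.47) stood apart in library 5. Shares of a library sum to 100%, so these values are not independent of each other.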

How the results depend on the processing

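No paired analysis was possible because replicate numbers follow sample order and pair no libraries across the groups. The number of Igkv rows called higher was 0 in edgeR under each alternative tried with it and 3 in DESeq2. The rows higher at unadjusted p under 0.05 were 17, 4 with title number as a random effect (correlation 0.439), 6 without title number 110 and 8 to 25 with each library left out. Leaving out each library in turn, summed Igkv kept a positive log2 fold change of 0.59 to 1.44 and was not called.

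The sign turned for Igkv4-74 (1.14 with the random effect, -0.40 to 2.49 without single libraries), Igkv12-46 (-0.67 without title number 110) and Igkv16-104 (-0.36 without title number 110, -0.15 to 2.39 without single libraries). Without single libraries it also turned for Igkv4-71 (-2.61 to 1.001), Igkv8-30 (-1.65 to 0.39) and Igkv15-103 (-0.0741 to 1.54). The log2 ratio of Igkv to Igkc was -0.0103 without RefSeq pseudogenes, -0.0101 without Igkv11-106 and -0.0755 to 0.113 without single libraries. The likeness difference was 0.00571 without title number 110 and -0.0705 to 0.00951 without single libraries. Neither was past its threshold in any of these, and the cause was not tested. The denominators with unnamed rows and without Igkv11-106 were chosen after seeing the data; they gave leading shares that differed by 2.39 and 5.35 points between the groups. Reads that match several segments are not in the counts, which limits every share.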
